A study of Homo sapiens with 8 samples.

Results

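Cytosolic ribosomal protein genes were examined in MOLM-13, an established KMT2A-rearranged (KMT2A-r) line of human acute myeloid leukemia. The genes were chosen by symbol: RPL or RPS followed by a number, with an optional A, X or L and a further digit, plus RPLP0, RPLP1, RPLP2 and RPSA. RPS27A, a fusion of ubiquitin with a ribosomal protein, and RPS27L were left out. This gave 82 of the 38551 genes with values, of which 52 belonged to the large subunit (60S) and 30 to the small subunit (40S). The study compared cells given 100 nM PR-957 for 72 h with cells given the diluent DMSO for the same time, with 4 libraries in each group. PR-957 (ONX-0914) inhibits the immunoproteasome, the form of the proteasome that carries the catalytic subunit PSMB8. All libraries came from polyA RNA of this single line and carried no genetic change beyond those of the line. The labels do not say that replicates were separate cultures, so p-values measure the spread between these libraries only.

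Ribosomal proteins assemble with rRNA into both subunits, and each ribosome carries about a single copy of most of them, so their mRNAs are usually abundant and adjusted together. Most of their mRNAs begin with a C followed by an unbroken run of pyrimidines, the terminal oligopyrimidine (TOP) motif. This motif places them under translational control by the kinase mTOR and by the RNA-binding protein LARP1. In leukemia and other growing cells the transcription factor MYC is also known to promote ribosome production.

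The first bases of the transcripts were compared, because the TOP motif is the feature by which these mRNAs are usually recognized. RefSeq start sites of GRCh38.p14 were found for 65 of the 82 genes. A C at an annotated start followed by at least 4 pyrimidines was present in 46 of these, 70.8%, against 5.14% of 27305 genes in the same table. Within 10 bases of the start the same pattern was found for 57 genes, 87.7%, against 38.4% of all genes. The windows below are shown for abundant genes with the motif, for genes with some of the largest changes, and for parent genes and their paralogs. Each holds 10 bases before the start site and 20 bases from it, 5′ to 3′ on the transcribed strand, and capitals mark the pyrimidine run that opens the transcript. Their positions were chr9:19380217-19380246 (minus strand) for RPS6, chr10:78033853-78033882 (plus) for RPS24, chrX:154398367-154398396 (plus) for RPL10, chr14:49598691-49598720 (minus) for RPS29 and chr12:56041908-56041937 (plus) for RPS26. They were chr1:6199576-6199605 (minus) for RPL22, chr3:170870176-170870205 (minus) for RPL22L1, chr17:8383174-8383203 (minus) for RPL26 and chr5:172958719-172958748 (plus) for RPL26L1. For RPL10 the window is that of 1 of 3 annotated starts and for RPL26L1 that of 1 of 2.
RPS6: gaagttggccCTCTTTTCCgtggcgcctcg
RPS24: aatcgtggttCTCTTTTCCTCCTTggctgt
RPL10: ggaggagcgcCTCTTTCCCTTCggtgtggt
RPS29: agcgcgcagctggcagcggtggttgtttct
RPS26: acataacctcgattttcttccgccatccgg
RPL22: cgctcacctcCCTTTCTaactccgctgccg
RPL22L1: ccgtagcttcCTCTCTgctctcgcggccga
RPL26: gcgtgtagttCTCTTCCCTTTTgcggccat
RPL26L1: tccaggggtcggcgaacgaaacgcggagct
RPL22 and RPL22L1 both opened with such a run, whereas RPL26 did and RPL26L1 did not. The annotated starts of RPS29 and RPS26 lacked it, although RPS26 held the pattern within 10 bases of its start. These are matches in the annotation, and the start sites used in MOLM-13 cells were not measured.

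To assess how much of the transcriptome these genes took up, their summed fragment counts were divided by all gene counts of the same library. The 82 genes held 18.7%, 17.5%, 18.7% and 18.4% of counts in DMSO replicates 1 to 4, and 15.3%, 14.4%, 14.5% and 13.5% in PR-957 replicates 1 to 4. Every PR-957 library lay below every DMSO library, with means of 18.3% ± 0.585 (SD, n = 4) and 14.4% ± 0.718 and a difference of -3.92 percentage points. In bulk RNA, fewer cells of a type and less RNA per cell cannot be told apart. The share of counts from mitochondrially encoded genes moved the other way, from 2.28% ± 0.340 in DMSO to 4.70% ± 0.449 in PR-957. Without those genes in the total, the ribosomal protein share was 18.8% in DMSO and 15.1% in PR-957, a difference of -3.64 percentage points. Counts of mitochondrial genes do not enter this share, and the cause of its difference was not tested.

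**Figure D1:**
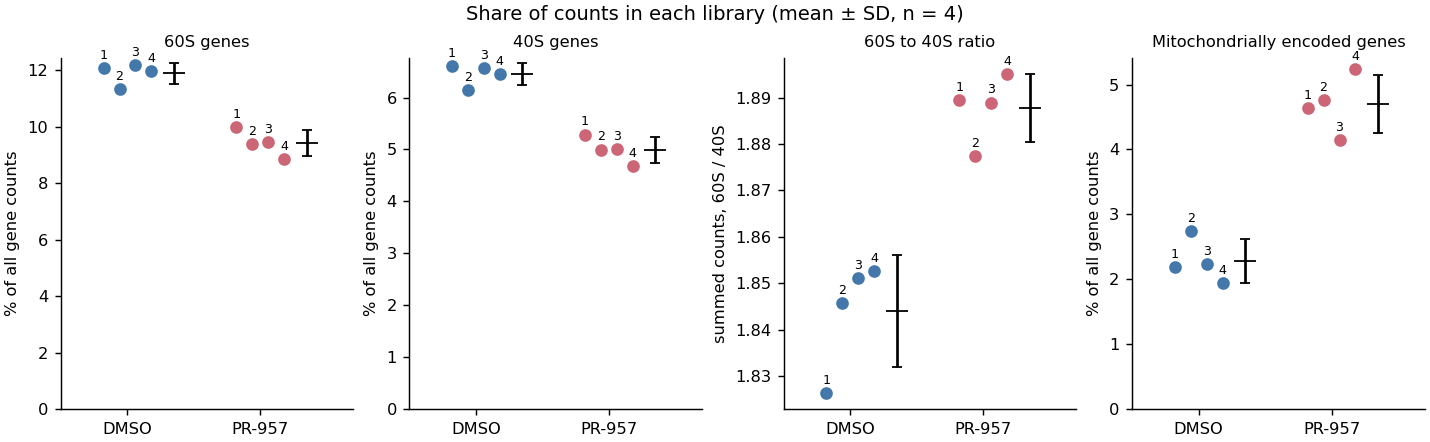
Share of all gene counts in 60S genes, 40S genes and mitochondrially encoded genes (percent), and the ratio of summed 60S to summed 40S counts, in each DMSO and PR-957 library. Numbers mark replicates, crosses with bars are mean ± SD (n = 4), and the ratio axis does not start at 0. The PR-957 libraries lie below the DMSO libraries for both subunits and above them for the other 2 measures.

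Total counts per library ran from 16675036 to 23111223, and the 2 groups overlapped in depth. The myeloid markers fixed for the line were all detected (8 of 8 passed the filter on low counts), whereas T cell and erythroid markers did not pass (0 of 3 each). Of these 8 myeloid markers 3 were lower and 3 higher in PR-957, and their summed level was 907 to 987 CPM in DMSO and 1654 to 1938 CPM in PR-957. The mean of LYZ, which encodes lysozyme, rose from 153 to 820 CPM and that of MPO, myeloperoxidase, from 175 to 506 CPM. Means fell from 340 to 173 CPM for FLT3, from 14.4 to 9.40 for HOXA9 and from 60.5 to 47.9 for MEIS1. Single myeloid markers thus changed in both directions, and their part in the ribosomal protein decrease was not tested. Of the epithelial markers 2 of 3 passed, with a summed level of 44.6 to 52.9 CPM (counts over the scaled library size) in DMSO and 28.8 to 40.2 CPM in PR-957, and their part in the results was not tested. Of the 3 B cell and the 3 fibroblast markers 1 passed in each list, and summed levels stayed at or below 2.31 CPM in every library.

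Not all of the 82 genes could be read equally well. RPS25, RPS18, RPL7A and RPS9 are among 5 genes placed a further time on an alternate or fix contig of the genome, and reads with several placements were not counted. None of these 5 genes had more than 119 counts in any library, and RPS9 alone passed the filter. The cause of the low counts was not tested. RPS10, RPL17 and RPL36A share 59.95%, 53.1% and 43.8% of their exon bases with the readthrough genes RPS10-NUDT3, RPL17-C18orf32 and RPL36A-HNRNPH2, so their counts came from the remaining bases only. RPL10L had 1 count in total over the DMSO libraries and 0 over the PR-957 libraries, and RPL3L had 2 and 4. A count of 0 in 1 library allows up to 3 counts, or 0.130 to 0.180 CPM by library, and covers counting error only. The remaining 68 genes that are not paralogs, named core genes here, had at least 2981 counts in every library.

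PR-957 libraries held less mRNA of nearly every ribosomal protein gene that could be read. Of 76 genes that passed the filter, 67 were lower and 5 higher in PR-957 at an adjusted p under 0.05, and 4 were not called. Across all 13179 genes tested, 23.5% were called lower and 23.1% higher, 46.6% in all. The median log2 fold change of the 76 genes was -0.41, a change of -24.7%, beside 0.003 over all genes tested. The 5 genes that rose were RPS26, RPS10, RPL26L1, RPL22L1 and RPL17, and the 4 without a call were RPS9, RPL7L1, RPL39L and RPL36A. Of these 9 genes, 4 are paralogs of another ribosomal protein gene and 4 are among those with a second placement or shared bases, which leaves RPS26.

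**Figure D2:**
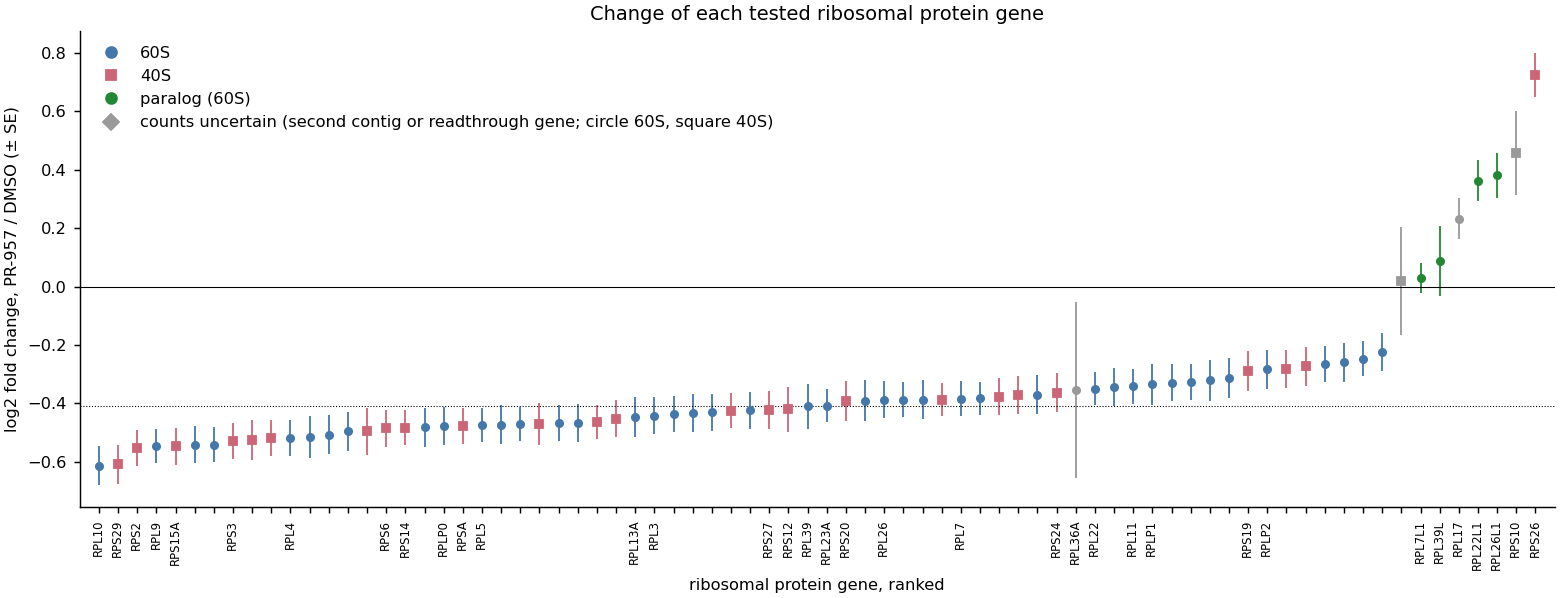
Log2 fold change (PR-957 over DMSO) with its standard error for each of the 76 tested genes, ranked, with names for those chosen by the naming rule; blue circles are 60S genes, red squares 40S genes, green circles paralogs, and grey symbols genes on a second contig or sharing bases with a readthrough gene. The dotted line is the median of -0.41, and RPS26 at 0.72 is the only core gene above 0.

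The sizes of the decrease were compared from gene to gene. Of the 68 core genes 67 fell and 1 rose, and 64 fell without any overlap between the groups, where 21.7% of all genes tested did so. All 5 genes that rose did so without overlap, where 20.8% of all genes tested lay higher without overlap. The 3 that fell with overlapping groups were RPL21, RPL35 and RPL38. Leaving out RPS26, log2 fold changes of the core genes ran from -0.61 for RPL10 to -0.22 for RPL21, with quartiles of -0.48 and -0.37. Their SD was 0.090. Only 3 core genes changed by 1.5-fold or more in either direction, RPL10, RPS29 and RPS26, where 16.6% of all genes tested did.

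In each library, log2 levels of the core genes were set against their DMSO mean. The median deviation was 0.05, -0.09, 0.06 and -0.01 in DMSO replicates 1 to 4, and -0.29, -0.42, -0.43 and -0.54 in PR-957 replicates 1 to 4. The medians of all 4 PR-957 libraries lay below those of all DMSO libraries, from -0.29 in PR-957 replicate 1 to -0.54 in replicate 4. Across the core genes of a library the SD of the deviation was 0.029 to 0.047 in DMSO and 0.141 to 0.181 in PR-957, with RPS26 included. DMSO libraries are set against their own mean here, which keeps their SD small by construction. The PR-957 values also hold the differences in fold change between genes, so these ranges do not compare the spread of the groups. Comparing replicates 1 and 2 alone gave a median over the 76 genes of -0.33 with 62 lower and 5 higher. Replicates 3 and 4 alone gave -0.50 with 67 lower and 3 higher. Across the core genes without RPS26, the fold changes of these separate pairs of replicates correlated with a Pearson's r of 0.77 and a Spearman's rho of 0.77 (n = 67 genes, which share their libraries and are not independent).

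**Figure D3:**
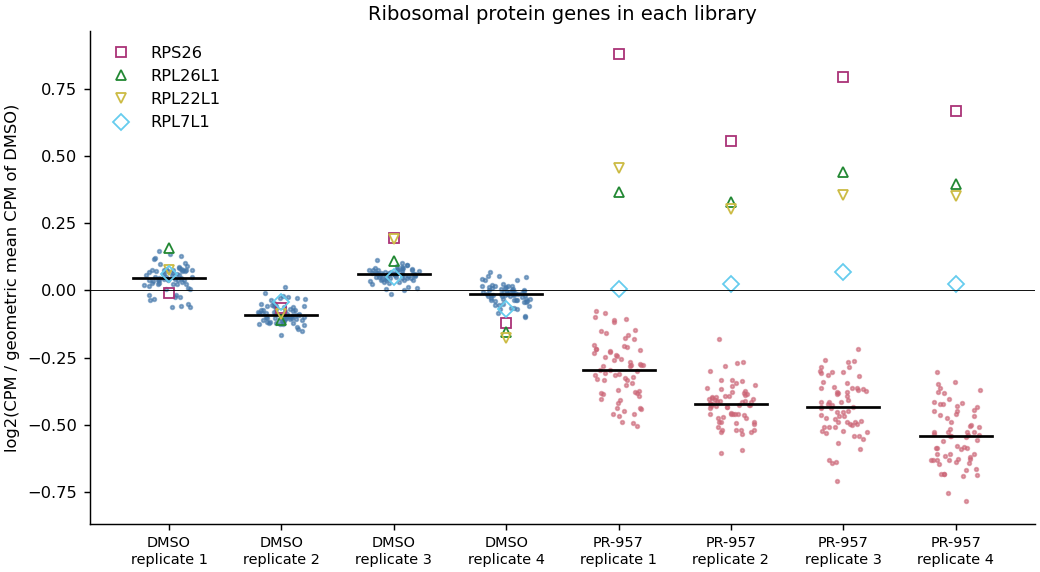
Log2 ratio of CPM to the geometric mean of DMSO for the core genes (dots, without RPS26) in each library, with their median as a black bar; open symbols show RPS26 and 3 paralogs. The dots lie near 0 in DMSO and below 0 in every PR-957 library, lowest in replicate 4, while RPS26, RPL26L1 and RPL22L1 lie above 0 in every PR-957 library.

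Both subunits took part in the decrease. All 43 core 60S genes fell, with a median of -0.41, and 24 of 25 core 40S genes fell, with a median of -0.45. Summed 60S counts fell from 11.9% to 9.42% of each library and summed 40S counts from 6.45% to 4.99%. The ratio of 60S to 40S counts was 1.83, 1.85, 1.85 and 1.85 in DMSO and 1.89, 1.88, 1.89 and 1.89 in PR-957. The ratio was thus slightly higher in all 4 PR-957 libraries, without overlap, with means of 1.84 ± 0.0121 and 1.89 ± 0.0074 (SD, n = 4). Over the 76 tested genes the 60S median was -0.39 and the 40S median -0.43. The gap between these medians ran from 0.02 without 1 library to 0.06 without another, always with the 60S median higher.

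The largest decreases were found in RPL10, a 60S protein that joins late in assembly, and in RPS29, RPS2, RPL9 and RPS15A. RPL10 stood at 3773, 3710, 3700 and 3760 CPM in DMSO and at 2630, 2685, 2284 and 2168 CPM in PR-957. The lowest DMSO library exceeded the highest PR-957 library by far more than the spread within DMSO, and the log2 fold change was -0.61, with an SE of 0.068 and an adjusted p of 5.53e-07 by edgeR. RPS29 was measured at 864, 751, 857 and 818 CPM in DMSO and at 606, 539.9, 526 and 487 CPM in PR-957, with a log2 fold change of -0.61 and no overlap. RPS2, RPL9 and RPS15A each fell by 0.55 on the log2 scale, and their groups did not overlap either. RPL23A, RPL39 and RPS12 lay nearest to the median, at -0.41, -0.41 and -0.42.

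RPS26, a 40S protein that lies near the channel by which mRNA leaves the ribosome, moved against all other core genes. Its level was 187, 179.9, 215 and 173 CPM in DMSO and 346, 276, 326 and 299 CPM in PR-957. All 4 PR-957 libraries lay above the highest DMSO library, and the log2 fold change was 0.72 with an SE of 0.076 (adjusted p of 9.36e-07), a rise of 65.2%. The rise was 0.76 within replicates 1 and 2 and 0.68 within replicates 3 and 4. RPS26 lies at chr12:56041918-56044697 (plus strand), shares no exon base with another gene of its strand, and is annotated on no other contig. Of its 100-base transcript windows 33.1% occur elsewhere on the primary chromosomes and 11.6% on another contig, where reads may be lost to multiple placement. Its level per length in DMSO, 166 CPM per kb, was the lowest of the core genes, and the part of lost reads in this was not tested.

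Apart from RPS26, genes with well-known roles fell, by amounts on either side of the core median of -0.43. Their values ran from -0.28 for RPLP2 to -0.61 for RPL10. The ribosomal stalk proteins RPLP0, RPLP1 and RPLP2, which recruit translation factors, changed by -0.48, -0.34 and -0.28. RPL5 and RPL11, which together can bind the p53 regulator MDM2, changed by -0.47 and -0.34. RPS6, the classical substrate of the S6 kinases, changed by -0.48 and RPS14, which is lost in myelodysplasia with deletion of the long arm of chromosome 5, by -0.48. RPS19, the gene most often mutated in Diamond-Blackfan anemia, changed by -0.29 and RPSA, also known as the laminin receptor, by -0.48. RPS3 and RPL4 fell by 0.53 and 0.52, and RPL3 and RPL13A by 0.44 and 0.45. All of these passed the test, and for each the groups did not overlap.

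Many of the other core genes lay between these values. RPL13, RPL36, RPL37 and RPS28 changed by -0.51 to -0.49, RPL13 the most. RPL30, RPL15, RPS16, RPL29, RPL12 and RPS3A changed by -0.47 for RPL30 to -0.45 for RPS3A, and RPL18, RPL35A, RPL31 and RPL37A by -0.44 to -0.42. RPS4X, the X-linked 40S gene, changed by -0.39, as did RPL34, RPL24 and RPL41, the gene of the shortest ribosomal protein. RPL14, RPS7, RPS15 and RPL8 followed at -0.38 to -0.37. The smallest changes among these genes were those of RPL19 at -0.34, RPL27A and RPL27 at -0.33 and RPL28 at -0.32. Each of them passed the test, and for none of them did the groups overlap.

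To see which genes departed from the common shift, libraries were also scaled to the summed counts of the 82 genes. On this scale a gene that moves with the pool has a log2 fold change near 0. Of the 67 core genes without RPS26, 10 were lower than the pool and 8 higher. Against the pool 10 genes were lower and 15 higher, where 4.48% and 64.2% of all genes tested were. The lower genes were RPL10, RPS29, RPS2, RPS15A, RPL9, RPL32, RPL10A, RPS3, RPS23 and RPL4, at -0.19 to -0.09 relative to the pool. RPS23, RPL4 and RPS3 lay near the threshold, with an adjusted p by edgeR on this scale of 0.0484, 0.0472 and 0.0453. Since the genes make up the pool, departures from it fall on both sides by construction. Among core genes the higher ones were RPS26 at 1.15 and, at 0.14 to 0.20, RPS19, RPLP2, RPS21, RPS13, RPL6, RPL35, RPL23 and RPL21. RPL21 stood at 3452, 3205, 3524 and 3414 CPM in DMSO and at 3223, 2994, 2751 and 2683 CPM in PR-957. Its groups overlapped through PR-957 replicate 1, and 100.0% of its transcript windows have copies elsewhere on the primary chromosomes.

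The size of the decrease was compared with properties of the genes. Per kb of MANE Select transcript, RPS24, RPS20, RPS12, RPS2 and RPS27 had the highest levels in DMSO, from 7610 CPM per kb for RPS24 to 6093 CPM per kb for RPS27. They changed by -0.36, -0.39, -0.42, -0.55 and -0.42, values on either side of the core median. Across the 67 core genes without RPS26, Spearman's rho of the log2 fold change was -0.16 with the average log2 CPM, -0.22 with transcript length and -0.07 with the share of windows copied elsewhere on the primary chromosomes, given as descriptions over genes of the same libraries. The 26 core genes that host small nucleolar RNAs in their span had a median of -0.46 and the 42 that do not had -0.39. The pyrimidine start was compared over all tested genes with an annotated start, not the core genes alone. Genes with it had a median of -0.39 (39 of 43 tested lower, 2 higher), and those without it -0.38 (14 of 18 lower, 3 higher). The genes not called lower were RPS10, RPL22L1, RPS9 and RPL36A with it, and RPS26, RPL26L1, RPL17 and RPL7L1 without it. Of these only RPS26 is a core gene. The motif CCGGAAG, read on both strands of 300 bases around the start, was found in 33.8% of the 65 genes and 12.2% of all genes, AAGATGG in 13.8% and 7.11%, and TATAAA in 10.8% and 14.0%.

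Of the 4 paralogs tested among these genes 0 were called lower and 2 higher, beside 23.5% and 23.1% of all genes tested. RPL22L1, RPL26L1, RPL39L and RPL7L1 are paralogs of RPL22, RPL26, RPL39 and RPL7, and protein identity within the pairs was not computed. RPS27L and RPL36AL, which the symbol rule does not take, were added for comparison. RPL22L1 stood at 73.8, 65.9, 79.9 and 61.9 CPM in DMSO and at 96.0, 86.4, 89.5 and 89.3 CPM in PR-957, without overlap (log2 fold change 0.36, SE 0.071, adjusted p = 3.39e-04). Its parent RPL22 fell by 0.35. RPL26L1 rose by 0.38 (SE 0.077, adjusted p = 4.8e-04), from 30.8, 25.6, 29.8 and 24.8 CPM to 35.6, 34.7, 37.5 and 36.3 CPM, while RPL26 fell by 0.39. RPS27L rose by 0.28 and RPS27 fell by 0.42. RPL39L at 0.09 and RPL7L1 at 0.03 were not called, while RPL39 and RPL7 fell by 0.41 and 0.38. RPL36AL rose by 0.19 (adjusted p = 0.0152), although its groups overlapped.

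The ratio of paralog to parent counts within a library does not depend on scaling, and it was compared by a two-sided exact permutation test over the 70 splits into 4 and 4 libraries. Of 8 pairs listed, 6 had enough counts, and p-values were adjusted over these 6. RPL22L1 counts were 3.99%, 3.96%, 4.52% and 3.55% of RPL22 counts in DMSO and 6.65%, 6.61%, 6.49% and 6.48% in PR-957. The PR-957 libraries agreed closely here, at 6.56% ± 0.0838 against 4.00% ± 0.399 (SD, n = 4), a log2 difference of 0.72. RPL26L1 was at 0.986%, 0.896%, 0.974% and 0.842% of RPL26 in DMSO and at 1.42%, 1.497%, 1.66% and 1.75% in PR-957, a log2 difference of 0.77. RPS27L stood at 4.02% ± 0.275 of RPS27 in DMSO and 6.51% ± 0.367 in PR-957 (0.70). RPL39L made up 1.30% ± 0.122 and 1.86% ± 0.278 of RPL39 (0.50), and RPL7L1 6.06% ± 0.216 and 8.10% ± 0.588 of RPL7 (0.42).

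In each of these 5 pairs all 4 PR-957 libraries lay above all DMSO libraries, with an exact p of 0.0286, the smallest that this design can give, and an adjusted p of 0.0343. Since each parent fell, the ratio of a gene that did not change to the same parent rises too, and of 12132 other tested genes with at least 10 counts in every library 46.5% (against RPL39) to 57.6% (against RPS27) also lay higher without overlap. The median difference over these genes was 0.35 against RPL22, 0.42 against RPL39, 0.39 against RPL26, 0.39 against RPL7 and 0.43 against RPS27. The differences of RPL7L1 (0.42) and RPL39L (0.50) lay near these medians, above 53.4% and 60.3% of the genes. Those of RPL22L1, RPL26L1 and RPS27L lay above 84.8%, 85.7% and 78.5% of the genes. The ratio of RPL36AL to RPL36A was higher by 0.44 on the log2 scale in PR-957 (exact p = 0.4), with overlapping groups. It was 0.0826 without DMSO replicate 2 and 0.65 without DMSO replicate 1, and RPL36A was counted on its unshared bases only. RPL10L and RPL3L had too few counts for a ratio with RPL10 and RPL3. The sums of counts of the paralogs stayed far below those of the parents in all 5 pairs.

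**Figure D4:**
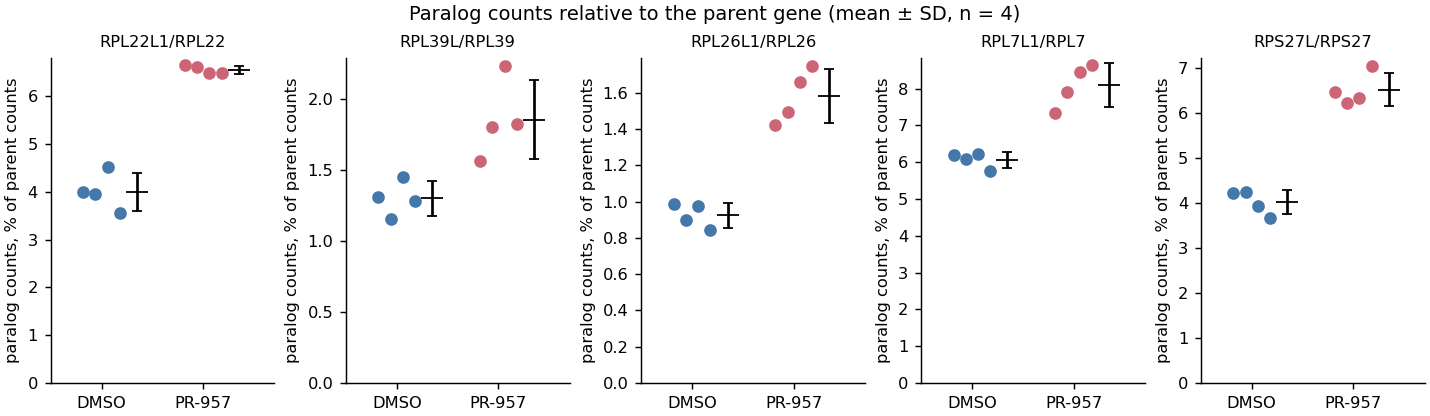
Counts of 5 paralogs as a percent of the counts of their parent gene in each DMSO and PR-957 library (dots), with mean ± SD (n = 4). All PR-957 libraries lie above all DMSO libraries in each pair, as for RPL22L1 with 4.00% in DMSO and 6.56% in PR-957.

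Related genes were read from the same fit for comparison. FAU, which encodes a ribosomal protein fused to a ubiquitin-like protein, was at -0.16 on the log2 scale and was not called (adjusted p = 0.0542), and RPS27A fell by 0.31. Of the 4 genes left out by the rule, RPS27L included, 1 was lower and 1 higher, with a median of -0.14. These counts are near the 23.5% lower and 23.1% higher of all genes tested. Of 23 other genes known for TOP transcripts 22 were tested, 20 were lower and 0 higher, with a median of -0.44, beside the same shares. Among them the elongation factor EEF2 fell by 0.84, RACK1, a 40S-bound scaffold, by 0.68, and EEF1A1 by 0.52. The snoRNA host transcript GAS5 fell by 0.95. EEF1D at 0.10 was not called. VIM at 0.23 was not called either, with 751 CPM in DMSO replicate 4 and 381 to 409.6 CPM in the other DMSO libraries. Without DMSO replicate 4 it was called higher at 0.52 (adjusted p = 7.71e-08). EEF1B2 had 1 count in DMSO and 4 in PR-957.

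Mitochondrial ribosomal protein genes, which encode the separate ribosome of the mitochondrion, did not share the decrease. Of 78 such genes 76 were tested, 9 were lower and 36 higher, with a median of 0.18, where 23.5% of all genes tested were lower and 23.1% higher. Among 9 chaperones and transport factors of single ribosomal proteins 2 were lower and 6 higher, with a median of 0.19, beside the same shares of all genes. GRWD1, the chaperone of RPL3, rose by 0.51, TSR2, which escorts RPS26, by 0.47 and BCCIP, which binds RPL23, by 0.44. PDCD2, the chaperone of RPS2, was at -0.14 and PDCD2L at -0.24 (adjusted p = 0.0461 and 0.0328). Their groups overlapped, and they kept the call in 9 and 12 of 20 alternatives.

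Among 14 regulators of ribosomal protein transcripts or of their translation 4 were lower and 4 higher, with a median of 0.07, close to the 23.5% lower and 23.1% higher of all genes tested. MTOR stood at 50.5, 54.7, 56.8 and 51.6 CPM in DMSO and at 74.0, 78.4, 79.1 and 87.1 CPM in PR-957, without overlap, so that the log2 fold change was 0.58 with an SE of 0.063 (adjusted p of 4.61e-07). LARP1 fell by 0.29, and EIF4EBP1, an inhibitor of cap-dependent translation under mTOR control, fell by 1.00 (adjusted p = 1.00e-09). MYC was at 842, 833, 787 and 703 CPM in DMSO and at 545, 546, 519 and 516 CPM in PR-957, and changed by -0.57 with an SE of 0.061. RPS6KB2, which encodes an S6 kinase, rose by 0.35, whereas RPS6KB1 at 0.09 was not called. These are mRNA levels, and neither protein nor kinase activity was measured in these libraries.

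**Figure D5:**
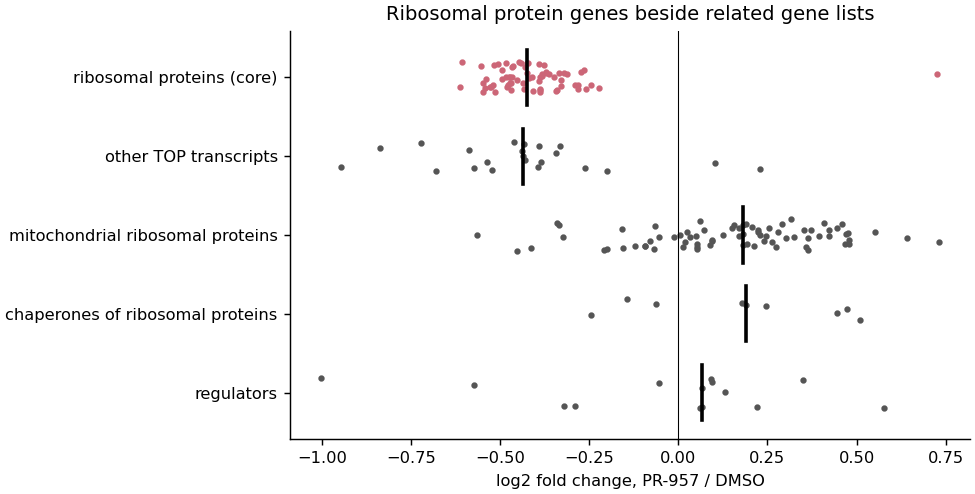
Log2 fold change (PR-957 over DMSO) of each tested gene (dots) in 5 lists, with the median of each list as a black bar. Core ribosomal protein genes and other TOP transcripts have medians of -0.43 and -0.44, mitochondrial ribosomal proteins, chaperones and regulators medians of 0.18, 0.19 and 0.07, and RPS26 is the core gene at the right.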

How the data were processed

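RNA of 8 MOLM-13 libraries was sequenced as paired ends. The authors trimmed reads with Trimmomatic 0.39, aligned them to hg38 with STAR 2.7.10a and, per the file headers, counted fragments with featureCounts 2.0.1 on NCBI RefSeq genes. Both ends had to map, reads with multiple placements were not counted, and the reverse strand was used. The deposited values are raw counts per gene. No source used here states whether the kit kept strand. The header named 16 libraries, of which 8 were in the table and the others were not analysed here. Of 38557 gene rows, 6 held no values. The authors' deposited table of their own comparison (means, log2 fold changes and p-values from DESeq2) was not used.

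Groups came from the sample titles. The quasi-likelihood test of edgeR 4.0.16 (R 4.3.3, robust, two-sided, TMM scaling, filterByExpr) was fitted to 13179 genes holding 99.9% of counts, with Benjamini-Hochberg adjustment over all of them and a threshold of 0.05. CPM are TMM-normalised. The members and all lists were chosen with earlier results of these data known. Values are described by counts and medians, since no list was tested as a whole. Genes were named by rule: paralog pairs, the 5 largest changes each way, the 5 highest levels per kb, the 3 genes nearest the median, 15 genes of known role, and the short lists. Others were named after their values were seen, and the values of some genes are not reported here. Lengths came from MANE Select transcripts of GENCODE v44, and long annotated ends lower the level per kb. Paralog ratios used a pseudocount of 0.5 and at least 10 counts in every library. Replicates of a group differed by more than sampling noise (chi-square per gene at least 3.18), so each was kept. On simulated counts of this comparison (13049 genes, 200 changed), the fit recovered 87.0% of 2-fold and 72.0% of 1.5-fold changes, and 7.02% of calls were unchanged genes. Alternatives were DESeq2 1.42.0, limma-voom (limma 3.58.1), other scalings, filters, a replicate block, a split of replicates 1 and 2 against 3 and 4, and leaving out each library. Scaling to the summed counts of the 82 genes was chosen after seeing the data.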

Additional observations from a re-analysis of the deposited data

Results flagged for a closer look

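In 190 groups of 4 libraries, a library was marked where its gap to the nearest library, divided by the range of the group, exceeded Dixon's critical value, which chance does in about 1 of 20 groups. RPL36A in DMSO replicate 2 stood at 7.46 CPM, above the other DMSO libraries. RPLP0 stood at 4166 CPM in PR-957 replicate 4, below the other PR-957 libraries. RPL11 in DMSO replicate 2 was at 2434 CPM, below the other DMSO libraries, and RPS14 in PR-957 replicate 1 was at 2793 CPM, above the other PR-957 libraries. RPS3 was marked in DMSO replicate 2 at 3715 CPM and in PR-957 replicate 4 at 2620.0 CPM, each below the rest of its group. EEF1A1 in DMSO replicate 2 stood at 35481 CPM and YY1 in the same library at 149.7 CPM, both below the other DMSO libraries. In DMSO replicate 4 VIM was at 751 CPM, above the other DMSO libraries, and RPS6KB2 at 34.03 CPM, below them. BCCIP in PR-957 replicate 1 was at 208 CPM, above the other PR-957 libraries.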

How the results depend on the processing

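The count of 67 lower and 5 higher genes was the same without each library in turn and with a replicate block, and the median ran from -0.47 to -0.37 without a library. With library totals alone the median was -0.33 while the median of all genes moved to 0.08. RPS26, RPL10, RPS29, RPS2, RPL22L1 and RPL26L1 kept their calls in all 20 alternatives. RPS10 and RPL17 each lost theirs in 1 of 20 and RPL36AL in 3 of 20. Few counts limit the reading of RPS10, RPS9, RPL36A, RPL39L and EEF1D. RPS10 had 71 to 141 counts per library, with a log2 fold change of 0.46.

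The number of higher genes was 3 with replicates 3 and 4 only and 3 without genes on a second contig or sharing bases with a readthrough gene, an alternative added after seeing the data. Without those genes the 60S median exceeded the 40S median by 0.0625. Replicate numbers were not used as pairs in the main fit. The correlations between deviations of libraries with the same number were 0.15, 0.21, 0.098 and 0.20. They were low, but each DMSO library correlated best with the PR-957 library of its own number, so pairing by number was not excluded. With the replicate block the paralog differences were 0.72 (RPL22L1), 0.50 (RPL39L), 0.77 (RPL26L1), 0.42 (RPL7L1) and 0.70 (RPS27L), where the exact sign-flip test cannot go below p = 0.125. For RPL26L1 the difference was 0.63 with replicates 1 and 2 only and 0.91 with replicates 3 and 4 only, and for RPS27L 0.58 and 0.81.

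Of the 4 genes left out by the rule, 2 were lower with DESeq2, limma-voom, no filter on low counts or the 2-level batch term, 3 with the replicate block or replicates 3 and 4 only, and 1 to 3 without a library (2 without DMSO replicate 2 or 4, 3 without PR-957 replicate 1). Of other TOP transcripts 1 was higher with replicates 1 and 2 only, and 0 to 1 without a library (1 without DMSO replicate 4). Of the chaperones 1 was lower with limma-voom, upper-quartile scaling or no filter, 0 with library totals alone or replicates 3 and 4 only, and 0 to 2 without a library (0 when any of DMSO replicates 1 to 3 or any of PR-957 replicates 2 to 4 was left out). Of the regulators 2 were higher with replicates 3 and 4 only.

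Changes of sign occurred in uncalled genes. With replicates 3 and 4 only they were RPL39L at -0.0298, EEF1D at -0.34, VIM at -0.0899 and NCL at 0.0224. Without a library, RPL36A ran from -0.52 to 0.0887 (the latter without DMSO replicate 2) and EEF1D from -0.17 (without PR-957 replicate 2) to 0.22, with -0.0013 without DMSO replicate 1. With library totals alone NCL was at 0.0175 and RPTOR at 0.0257, and MAX was at -0.0342 with replicates 1 and 2 only. The causes were not tested. Of 1700 values of 85 named genes under alternatives, 1631 kept their call and direction.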
